A study of Mus musculus with 6 samples.

Results

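The genes described here encode the proteasome, the protease complex that degrades ubiquitin-tagged proteins. They are the mouse genes whose symbol in the array's platform annotation reads Psma, Psmb, Psmc, Psmd or Psme followed by a number. The rule found 44 genes among the 18193 that have at least 1 probe set with a single gene symbol. Each gene was represented by its single-symbol probe set with the highest mean over the 6 arrays, so no difference between samples entered the choice. Of the 44 genes, 8 encode the alpha ring of the core particle (Psma1 to Psma8) and 7 its constitutive beta ring (Psmb1 to Psmb7). A further 4 encode inducible or tissue-restricted beta subunits (Psmb8, Psmb9, Psmb10 and Psmb11). The regulatory particle is covered by 6 ATPase genes (Psmc1 to Psmc6) and 11 non-ATPase genes (Psmd1, Psmd2, Psmd3, Psmd4, Psmd6, Psmd7, Psmd8, Psmd11, Psmd12, Psmd13 and Psmd14). The remaining members are 3 chaperones that help build the ATPase ring (Psmd5, Psmd9 and Psmd10), 3 alternative activators (Psme1, Psme3 and Psme4) and 2 genes that match by symbol only. Those 2 are Psmc3ip, a cofactor of the meiotic recombinases, and Psme3ip1, a protein that binds Psme3. The symbols Psme2 and Psme2b stand only on a probe set shared by several symbols, so they have no value here.

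As background, the core particle is a barrel in which rings of alpha subunits gate the entry and rings of beta subunits enclose the active sites. The catalytic subunits are Psmb5 (chymotrypsin-like activity), Psmb6 (caspase-like) and Psmb7 (trypsin-like). Interferon-gamma and immune cells replace them with Psmb8, Psmb9 and Psmb10, which gives the immunoproteasome and favours peptides for MHC class I presentation. The regulatory particle recognises ubiquitin chains, removes them, unfolds the substrate with its ATPase ring and feeds it into the core. When proteasome activity falls short, the transcription factor NRF1 (gene Nfe2l1) raises the subunit genes together through antioxidant response elements, and its relative NRF2 (Nfe2l2) acts on part of them under oxidative stress. In fat cells, proteasome supply through NRF1 is known to matter for adaptation of brown fat to cold.

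Affymetrix arrays gave the RNA levels of mouse mesenchymal stem cells, bought from a commercial supplier and grown in culture. In 3 independent experiments, an irradiated culture received 2 h of pulsed broadband terahertz radiation (35 fs pulses near 10 THz, 1 kHz repetition, 1 mW/cm2 on average), and an unexposed control culture stood beside it. Both cultures were held at 26 to 27 °C, both had received rosiglitazone (1 µM), insulin (5 µg/ml), IBMX (100 µM) and dexamethasone (1 µM), an adipogenic mixture renewed 48 h earlier, and RNA was taken as soon as exposure ended. There are thus 3 irradiated and 3 control arrays in 3 pairs, and the study asked how an irradiated culture differs from its own control. The strain, sex and number of donor animals are not given in the sources used here, so the spread between experiments may not include that between donors.

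The label of the cells was set against marker genes. Of 9 measured mesenchymal markers, Cd44, Itgb1, Pdgfrb, Alcam and Vcam1 lay between 10.13 and 11.21 on all arrays, on a log2 scale on which the median of all probe sets is 4.84, whereas Thy1, a classical mesenchymal surface marker, lay between 3.51 and 4.07. The mean over the 9 markers was 9.08 to 9.27 in irradiated and 9.12 to 9.19 in control cultures. Fat-cell transcripts were high in both arms, with Fabp4 between 14.36 and 14.48. The leukocyte genes Ptprc (9.55 to 10.09), Csf1r (12.42 to 12.80) and Lyz2 (14.15 to 14.25) were high as well, and the array means over 14 macrophage and leukocyte markers lay between 10.97 and 11.06 in irradiated and between 10.84 and 11.03 in control cultures. Means over 8 endothelial and over 10 dendritic and lymphoid markers lay between 3.57 and 4.26 on every array. In such bulk RNA, fewer cells of a type and less RNA per cell cannot be told apart.

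Promoters of 37 of the 44 genes were found in RefSeq sequence of the mouse assembly GRCm38.p6, and 2 of them are shown because the results below turn on their genes. Psmb5 is a constitutive catalytic subunit. Psmb3, a beta subunit without catalytic activity, had the irradiated minus control difference farthest from 0 among the 44 chosen probe sets. Each sequence is the 250 bases before the start of the transcript, 5′ to 3′ on the strand of the gene. Capitals mark the match to the antioxidant response element core (TGACNNNGC, either strand) in Psmb5 at chr14:54617996-54618245 on the minus strand. In Psmb3 at chr11:97703184-97703433 on the plus strand they mark an interferon-stimulated response element (GAAANNGAAA, here on the opposite strand).
Psmb5: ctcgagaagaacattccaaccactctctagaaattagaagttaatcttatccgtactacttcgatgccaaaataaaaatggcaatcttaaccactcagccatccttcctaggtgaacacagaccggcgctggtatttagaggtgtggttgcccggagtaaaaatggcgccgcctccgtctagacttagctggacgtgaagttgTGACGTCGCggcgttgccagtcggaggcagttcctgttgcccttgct
Psmb3: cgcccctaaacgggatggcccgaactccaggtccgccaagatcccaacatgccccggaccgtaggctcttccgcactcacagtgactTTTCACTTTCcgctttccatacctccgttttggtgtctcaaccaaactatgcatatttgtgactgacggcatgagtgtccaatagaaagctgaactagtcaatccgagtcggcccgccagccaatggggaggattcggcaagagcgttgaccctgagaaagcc

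Over the 40 promoter windows of the 37 genes, both strands searched, the antioxidant response element core was present in 5 (12.5%; Psmb5, Psmb6, Psmc6, Psmd9 and Psmd12), against 10.2% of all 32851 windows of the same length. The letters CCAAT, the box bound by NF-Y, were present in 16 (40.0%), against 33.8% of all windows. The interferon-stimulated response element was present in 3 (7.5%; Psmb3, Psmd4 and Psmd9), against 2.98%. These are matches of letters within 250 bases, not binding sites.

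Proteasome genes varied little between the 6 arrays. The 31 genes of the constitutive core and the regulatory particle, with the testis-restricted alpha subunit Psma8 left aside, had mean log2 levels between 8.77 (Psmb7) and 12.19 (Psma6). Levels of different probe sets are not comparable with each other, because hybridization differs between probes, so they are given only to place each gene on the scale. Psma8, at 5.87 to 6.18 in irradiated and 5.83 to 6.32 in control cultures, and Psmb11, the beta subunit of thymic epithelium, at 3.34 to 3.57 in irradiated and 3.28 to 3.53 in control cultures, were the lowest members, and of the 44 genes only Psmb11 had a mean under the median probe set. In both of these genes the arms overlapped. Across the 6 arrays each of the 44 genes spanned less than 0.5 on the log2 scale, from 0.04 for Psmd13 to 0.49 for Psma8, whereas 84.2% of all 3583 genes with a mean level of 9 or more did so. The 33 members at that level had a median SD of 0.0557, against 0.0983 over those 3583 genes.

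**Figure D1:**
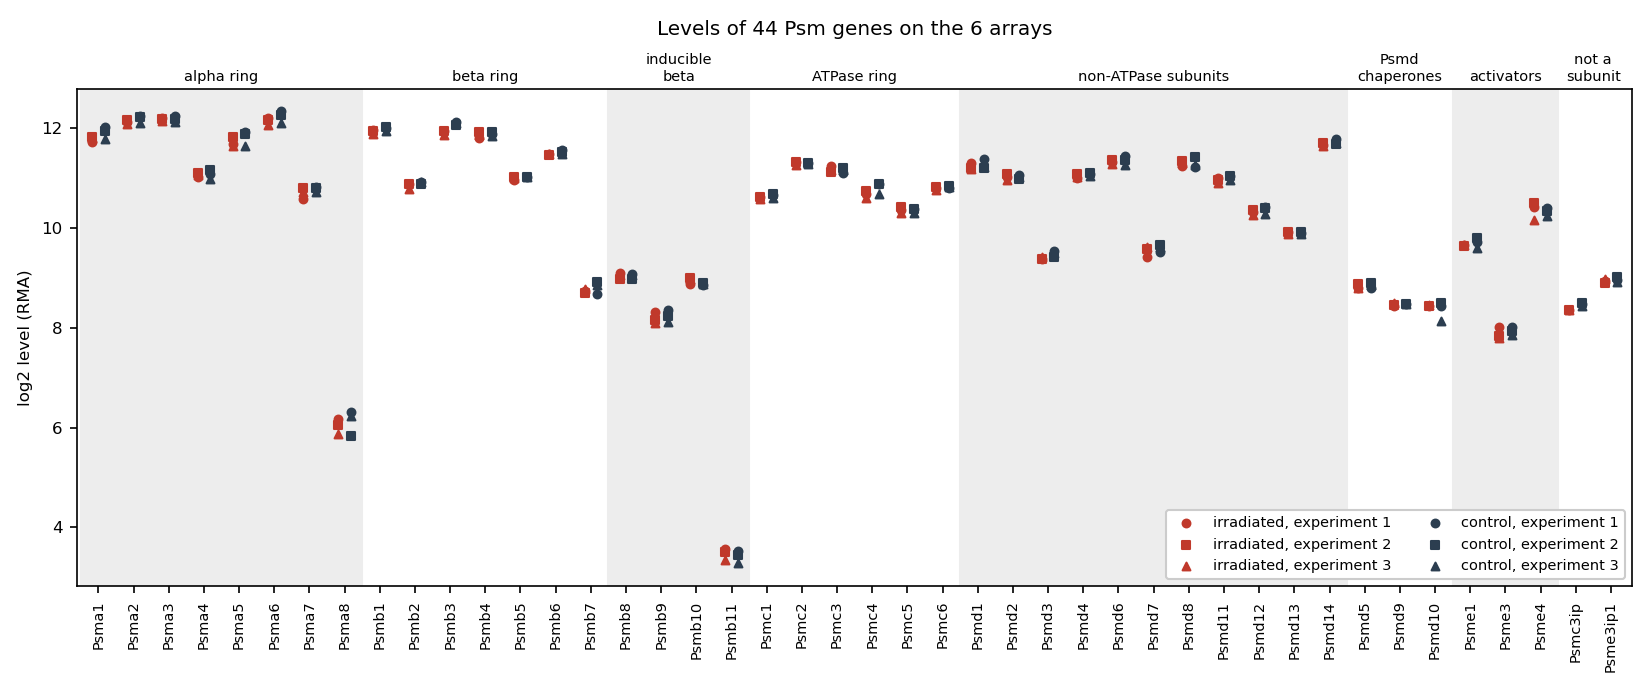
Log2 levels (RMA) of the 44 genes on each of the 6 arrays, grouped by role, with irradiated arrays in red left of control arrays in dark blue and the symbol giving the experiment. Points of a gene lie within 0.5 of each other, and Psma8 and Psmb11 lie apart from the rest at low levels.

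In irradiated cultures most proteasome genes lay slightly under their controls, and no gene passed the test. The irradiated minus control difference was below 0 in 34 of the 44 genes and above 0 in 10, by the unrounded values. Its median was -0.04 on the log2 scale (0.97-fold), against 0.00 over all 45037 probe sets, of which 47.6% were below 0. Among the 3583 genes with a mean level of 9 or more, 49.5% were below 0. With limma, experiments as blocks and Benjamini-Hochberg adjustment over all probe sets, 0 of the 44 genes passed an adjusted p of 0.05. On their chosen probe sets 0 had an unadjusted p under 0.05. The background was the same, since 0% of all probe sets passed. Of the 45037, 2237 had an unadjusted p under 0.05, near the share that this threshold gives where nothing differs. The 95% intervals of the 44 genes ran from -0.40 to 0.32 at their outermost, so all of them exclude a 1.5-fold difference in either direction, as do the intervals of 97.2% of all probe sets.

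The sign was shared across pairs more often than among probe sets at large. In experiments 1, 2 and 3, 32, 31 and 26 of the 44 genes were lower in the irradiated culture, with median differences of -0.05, -0.04 and -0.02. Among all probe sets 47.1%, 47.2% and 48.4% were lower. Irradiated cultures were lower in all 3 pairs for 15 genes (34.1%), against 11.2% of all probe sets and 14.7% of genes with a mean level of 9 or more. They were higher in all 3 pairs for 2 genes, Psmb10 and Psmb11, against 12.6% of all probe sets. Members of a complex are not independent of each other, so these counts describe the list and carry no test. Scaling moved the split. With each array centred on its median, 39 of the 44 genes were lower (median difference -0.06), and the median of all probe sets moved to -0.02. With quantile normalization of the deposited values 30 were lower (-0.03).

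**Figure D2:**
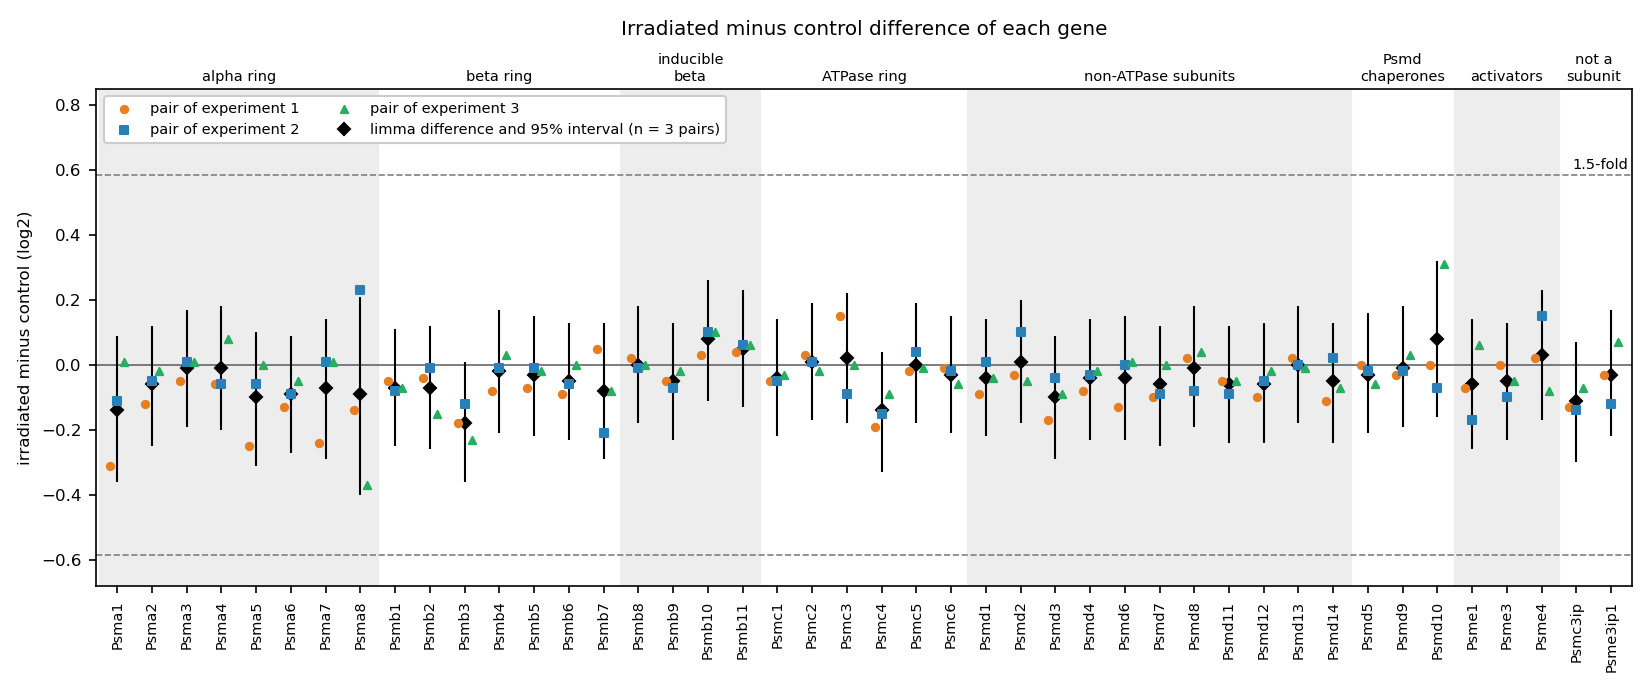
Irradiated minus control differences of the 44 genes on the log2 scale, as single pairs (coloured symbols) and as the limma estimate with its 95% interval (black, n = 3 pairs), with dashed lines at 1.5-fold. All intervals lie inside the dashed lines, and the constitutive alpha and beta subunits have estimates below 0, which holds for 12 of 14, Psma8 aside, with quantile normalization.

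In the constitutive core without Psma8, 14 of 14 genes had a difference below 0 (12 of 14 with quantile normalization), with a median of -0.07, and 0 passed limma's test. The mean over these 14 genes was 11.38, 11.43 and 11.37 in the irradiated cultures of experiments 1, 2 and 3, against 11.49, 11.49 and 11.41 in their controls. By this mean each irradiated culture lay under its own control, while irradiated culture 2 lay above control 3, so the arms overlapped. Gene by gene the third pair was split. In experiments 1, 2 and 3, 13, 12 and 7 of the 14 genes were lower, with median differences of -0.08, -0.06 and -0.01. In experiment 3, 5 genes were higher. With median centring the count of genes with an estimate below 0 was 14 of 14. Without experiment 1 it was 10 of 14, with a median of -0.03, and without experiments 2 and 3 in turn it was 13 and 14.

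In the alpha ring the difference was widest in experiment 1. There 8 of 8 genes were lower in the irradiated culture, with a median of -0.13, against 5 of 8 (-0.06) in experiment 2 and 3 of 8 (0.00) in experiment 3. Psma1, an alpha subunit of the outer ring, was at 11.72, 11.83 and 11.80 in the irradiated cultures of experiments 1, 2 and 3, against 12.03, 11.94 and 11.79 in their controls. The gap was wide in experiment 1 and absent in experiment 3, and the arms overlapped. Its difference was -0.14 ± 0.09 (SE, n = 3 pairs; limma adjusted p = 0.93). Psma6 was at 12.21, 12.17 and 12.06 in irradiated cultures, against 12.34, 12.26 and 12.11 in controls, lower in each pair by 0.05 to 0.13. Without experiment 1, 5 of 8 alpha genes lay below 0, with a median of -0.03. Psma7 was at 10.58, 10.81 and 10.73 in irradiated cultures, against 10.82, 10.80 and 10.72 in controls, so only its first pair stood apart. The other alpha genes Psma2, Psma3, Psma4, Psma5 and Psma8 had differences between -0.10 and -0.01.

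The beta ring had similar small differences in each experiment, with median differences of -0.07, -0.06 and -0.07 over its 7 genes. Psmb3 was at 11.95, 11.94 and 11.87 in irradiated cultures, against 12.13, 12.06 and 12.10 in controls. The 3 irradiated cultures all lay under the 3 controls. Its difference of -0.18 ± 0.08 (SE, n = 3 pairs; 95% interval -0.36 to 0.01) was the farthest from 0 of the 44 chosen probe sets, with a limma unadjusted p of 0.059 and an adjusted p of 0.93. Another probe set of Psmb3 gave -0.17, also lower in all 3 pairs. Irradiated arrays also all lay under control arrays for Psmb2 (10.78 to 10.88 against 10.89 to 10.93) and for Psmb5 (10.96 to 11.02 against 11.03). In these 2 genes the arms stood apart only by the last deposited decimal. Outside the core the same held for Psmc3ip, with a wider gap (8.35 to 8.36 against 8.43 to 8.50). No gene of the 44 had all irradiated arrays above all control arrays. The share of all probe sets with arms apart like this is not given here, so these cases describe single genes only. Psmb1 and Psmb4 differed by -0.07 and -0.02.

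The catalytic subunits were set against their inducible counterparts gene by gene. Psmb5 was at 10.96, 11.02 and 11.01 in irradiated cultures, against 11.03 on each of the 3 controls, a difference of -0.03 ± 0.07 (SE, n = 3 pairs; limma adjusted p = 0.98). Psmb8, which replaces Psmb5, was at 9.09, 8.97 and 9.05 in irradiated cultures, against 9.07, 8.98 and 9.05 in controls, with a difference of 0.00 ± 0.07. The levels of the arms of Psmb8 overlapped entirely.

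Psmb6 was at 11.48, 11.47 and 11.48 in irradiated cultures, against 11.57, 11.53 and 11.48 in controls, and Psmb9, which replaces it, was at 8.31, 8.16 and 8.09, against 8.36, 8.23 and 8.11. Both were level with or slightly under the control in each pair. Psmb7 was at 8.73, 8.70 and 8.77 in irradiated cultures, against 8.68, 8.91 and 8.85 in controls. Psmb10, which replaces Psmb7, was at 8.88, 8.99 and 8.97, against 8.85, 8.89 and 8.87, higher in each pair by 0.03 to 0.10. Its difference of 0.08 ± 0.08 (SE, n = 3 pairs; limma adjusted p = 0.95) was among the highest of the 44 genes, and the arms overlapped.

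The log2 ratio of inducible to constitutive subunit compares their transcripts within an array, and a change of it between arms is a change in relative RNA signal, not in the assembled complex. For Psmb8 over Psmb5 the irradiated minus control change of that ratio was 0.09, 0.00 and 0.02 in experiments 1, 2 and 3, and for Psmb9 over Psmb6 it was 0.04, -0.01 and -0.02. For Psmb10 over Psmb7 it was -0.02, 0.31 and 0.18, a mean of 0.16 ± 0.17 (SD, n = 3 pairs). The changes were smaller than or about as large as their spread between pairs. Exact two-sided sign-flip tests gave p = 0.5, 1 and 0.5 for these 3 ratios. With 3 pairs the smallest p such a test can give is 0.25. For Psmb8 over Psmb5, where 1 change was 0.00, the smallest is 0.5, the value found. No outcome could have passed 0.05, so these tests decide nothing.

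**Figure D3:**
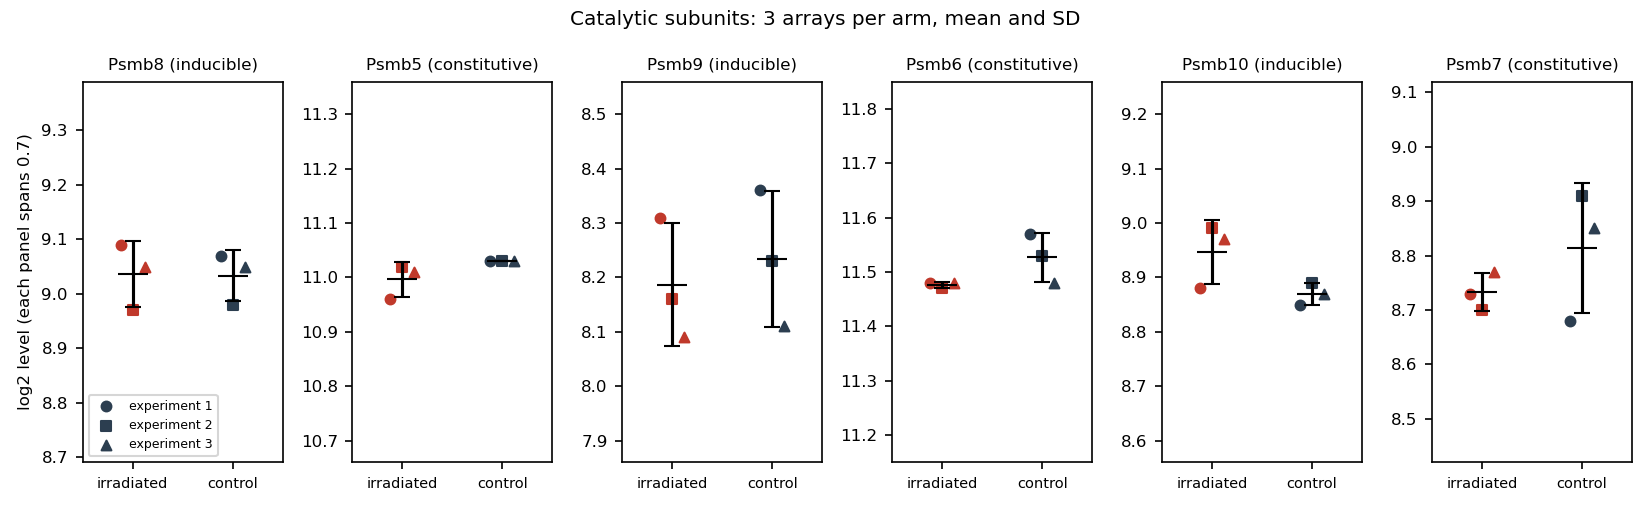
Log2 levels of the inducible catalytic subunits Psmb8, Psmb9 and Psmb10 and of their constitutive counterparts Psmb5, Psmb6 and Psmb7, with irradiated arrays left of control arrays, symbols for experiments, and bars for the mean and SD of 3 arrays. Each panel spans 0.7 on the log2 scale. Only in Psmb5 do all irradiated arrays lie under all control arrays, and there only by the last deposited decimal.

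The regulatory particle was lower in 12 of 17 genes, with a median difference of -0.04, and 0 genes passed limma's test. Quantile normalization gave 11 of 17. Median centring gave 16 of 17, with the median of all probe sets at -0.02. Without experiment 1 the count was 14 of 17, with a median of -0.02. In the ATPase ring, which unfolds substrates, 3 of 6 genes lay below 0 and 3 above, with a median of -0.01. Psmc4 was at 10.69, 10.74 and 10.60 in irradiated cultures, against 10.88, 10.89 and 10.69 in controls, lower in each pair by 0.09 to 0.19. Its difference was -0.14 ± 0.08 (SE, n = 3 pairs; limma adjusted p = 0.93), and irradiated culture 2 lay above control 3. Another bright probe set of Psmc4 had pair differences of -0.01, 0.07 and -0.01 and an estimate of 0.02, so the probe sets of this gene disagree. Psmc3, at the other end, had pair differences of 0.15, -0.09 and 0.00 and an estimate of 0.02 ± 0.08. Psmc1, Psmc2, Psmc5 and Psmc6 had differences between -0.04 and 0.01.

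Among the 11 non-ATPase genes 9 lay below 0, with a median of -0.04 and a range of -0.10 to 0.01. Psmd3, a scaffold subunit of the lid, was at 9.37, 9.37 and 9.41 in irradiated cultures, against 9.54, 9.41 and 9.50 in controls, a difference of -0.10 ± 0.08 (SE, n = 3 pairs; limma adjusted p = 0.93). Its irradiated arrays lay at or under the lowest control. The ubiquitin receptor Psmd4 was lower in each pair, by 0.02 to 0.08, and the deubiquitinase Psmd14, which strips ubiquitin chains at the entry, had pair differences of -0.11, 0.02 and -0.07. Psmd13, a lid subunit, was at 9.92, 9.92 and 9.88 in irradiated cultures, against 9.90, 9.92 and 9.89 in controls, the narrowest range of all members. The scaffold subunits Psmd1 and Psmd2 differed by -0.04 and 0.01, and the lid subunits Psmd11 and Psmd12 were lower in all 3 pairs with estimates of -0.06 each.

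The chaperones and activators showed no shared direction. Psmd10 was at 8.44, 8.43 and 8.45 in irradiated cultures, against 8.44, 8.50 and 8.14 in controls. Its estimate of 0.08 ± 0.10 turned to -0.04 without experiment 3, whose control lies apart from the other 5 arrays. Psmd5 and Psmd9 differed by -0.03 and -0.01. Psme1, the activator subunit induced by interferon-gamma, was at 9.66, 9.64 and 9.67 in irradiated cultures, against 9.73, 9.81 and 9.61 in controls (-0.06 ± 0.08). Psme3, the nuclear activator, was at 8.02, 7.84 and 7.80, against 8.02, 7.94 and 7.85 (-0.05 ± 0.08). Psme4, an activator best known from spermatogenesis and histone degradation, was at 10.43, 10.50 and 10.17, against 10.41, 10.35 and 10.25 (0.03 ± 0.08). In each of these activators the arms overlapped, and limma adjusted p was between 0.97 and 0.98. The symbol-only matches Psmc3ip and Psme3ip1 differed by -0.11 and -0.03. A second probe set of Psmc3ip, about as bright (mean level 8.40 against 8.41), gave -0.22 and was lower in all 3 pairs (limma unadjusted p = 0.029, adjusted p = 0.93).

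A total of 23 members have more than 1 single-symbol probe set, which leaves 47 further probe sets. For irradiated minus control, 28 of the 47 lay below 0 and 19 above, with a median of -0.03, and 0 were called. Psma5 differed by -0.10 on its member probe set and by -0.09 on another bright probe set. Besides Psmc4, bright probe sets also differed in sign for Psmc6 (-0.03 and 0.02) and for Psmd11, where the member probe set gave -0.06 and 1 of its other bright probe sets gave 0.07.

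The second set of comparisons asked how far the independent experiments differ from each other, with the 2 arrays of an experiment set against the 2 of another and irradiation kept as a factor. Each experiment is a single run, so these p-values measure the spread between arrays and not between repeats of a run. No proteasome gene passed the test between experiments, and calls were also rare among all probe sets, at most 1374 of 45037. At such shares few or no calls would fall among 44 genes, so their absence does not set the proteasome genes apart. For experiment 2 minus experiment 1, 26 of the 44 genes lay above 0 and 17 below, with a median of 0.00, and 0 were called by limma. Among all probe sets 0.473% were called higher and 0.0466% lower. For experiment 3 minus experiment 1, 9 genes lay above 0 and 33 below, with a median of -0.05, and 0 were called, against 1.87% of probe sets called higher and 1.18% called lower. For experiment 3 minus experiment 2, 7 genes lay above 0 and 37 below, with a median of -0.06, and 0 were called, against 0.0355% called higher and 0% called lower. The medians of the 3583 genes with a mean level of 9 or more were -0.03, -0.07 and -0.03 in the same comparisons. An unadjusted limma p under 0.05 occurred in 0, 2 and 0 of the 44 genes on their chosen probe sets.

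On their member probe sets, the genes with the smallest p in these comparisons had differences of at most 0.30 in size. Psma8 gave the widest gap of experiment 2 minus experiment 1, with means of 5.94 in experiment 2 and 6.25 in experiment 1 (-0.30 ± 0.15, SE; limma adjusted p = 0.58), and its interval of -0.67 to 0.06 is the only member interval there that reaches past 1.5-fold. Psmd1, Psme3, Psmb9 and Psmb8 were next below 0, at -0.10 to -0.14. Above 0 were the lid subunits Psmd8 (0.15 ± 0.09; adjusted p = 0.65) and Psmd7, a partner of Psmd14 (0.14 ± 0.09; adjusted p = 0.66), followed by Psmd5, Psma7 and Psmb7 at 0.10 each.

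For experiment 3 minus experiment 1 the lowest differences were in Psmb11 and Psmb9. Psmb9 was at 8.09 and 8.11 in the irradiated and control cultures of experiment 3, against 8.31 and 8.36 in experiment 1, a difference of -0.23 ± 0.09 (SE; limma unadjusted p = 0.041, adjusted p = 0.24). Experiment 2, at 8.16 and 8.23, lay between them, so the experiments did not overlap in this gene. Psmb11, at a level under the median probe set, differed by -0.24 ± 0.09 (adjusted p = 0.23). Psme3, Psma6 and Psme4 followed at -0.20, -0.19 and -0.21, with adjusted p of 0.32 to 0.33. Another bright probe set of Psme4, at a mean level of 10.19, gave -0.39 (limma unadjusted p = 0.0068, adjusted p = 0.10). Of the 5 further probe sets of Psme4, 2 dim ones had the opposite sign. Psmd7 was the highest, at 0.15 ± 0.09 (adjusted p = 0.44), before Psmb7, Psmd8, Psmb10 and Psmd5 at 0.04 to 0.10. With a prior spread that depends on level, the median SE of the members was 0.0611 in place of 0.0929 and Psma6 was called (-0.19, adjusted p = 0.048), the only member called under any setting tried.

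Experiment 3 minus experiment 2 gave its smallest p below 0 in Psme4 (-0.22 ± 0.10, SE; limma adjusted p = 0.55), Psma5 (-0.21 ± 0.10; adjusted p = 0.57) and Psmc4 (-0.17 ± 0.09; adjusted p = 0.60). Psmb11 and Psma6 came next by p, at -0.16 and -0.13, and Psmd10 was at -0.17 with a larger p (adjusted p = 0.69). The other bright probe set of Psme4 gave -0.30 (limma adjusted p = 0.43), and 2 of the 5 further probe sets of Psme4 had the opposite sign. Above 0, the smallest p were in Psma8 (0.11), Psmb8 (0.08), Psmd3 (0.07), Psmd9 (0.03) and Psmd1 (0.01), none called. The constitutive core without Psma8 was lower in experiment 3 than in experiment 2 in 13 of 14 genes (median -0.07; 12 of 14 with quantile normalization and 10 of 14 with median centring). The regulatory particle was lower in 14 of 17 (median -0.05; 13 of 17 with either scaling). Among genes with a mean level of 9 or more, 2189 of 3583 were lower in that comparison. Of the 47 further probe sets of member genes, 1 was called in any of the experiment comparisons. It belongs to Psma1, is dim at a mean level of 5.73, and differed by -0.72 for experiment 3 minus experiment 1 (adjusted p = 0.042), while the bright probe set of Psma1 differed by -0.08. Of the variation of the 44 genes around their means, 53.8% lay between experiments, 21.6% between arms and 24.6% in the residual, against 65.5%, 11.8% and 22.7% for all probe sets. Arms have fewer degrees of freedom than experiments or the residual, so the shares do not rank these sources. Whether the share between arms exceeds what noise gives, or differs from that of all probe sets, was not tested.

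Genes around the proteasome were described from fixed lists. Of 13 measured assembly factors and partners, among them Pomp, the maturation factor of the core, Psmg1 to Psmg4, which build the alpha ring, and the deubiquitinases Usp14 and Uchl5, 0 were called by limma in any of the 4 comparisons. Their irradiated minus control median was 0.02, with 8 above 0 and 5 below. Of 8 measured ubiquitin receptors, shuttles and segregase genes, including Vcp and Ubqln1, 0 were called in any of the 4 comparisons, with an irradiated minus control median of -0.01.

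Protein-damage response genes and NRF2 targets behaved differently between experiments. Of 12 protein-damage response genes, all 12 lay above 0 in each of the 3 comparisons between experiments. Limma called 5 higher for experiment 2 minus experiment 1 (median of the list 0.71), 11 for experiment 3 minus experiment 1 (median 1.85) and 3 for experiment 3 minus experiment 2 (median 0.99). Hspa1a, the inducible HSP70, was at 12.35 and 12.70 in the irradiated and control cultures of experiment 3. Those of experiment 2 had 9.06 and 8.83, and those of experiment 1 had 5.63 and 5.71. Its difference was 6.85 ± 0.15 for experiment 3 minus experiment 1 (SE; limma adjusted p = 0.00011). All 8 NRF2 targets lay above 0 for experiment 2 minus experiment 1 (median 0.92) and for experiment 3 minus experiment 1 (median 1.01). Limma called 3 and 6 of them higher, with Hmox1, the heme-degrading enzyme, at 1.00 (adjusted p = 0.028) and 1.22 (adjusted p = 0.0063). The median of the 44 proteasome genes in these 2 comparisons was 0.00 and -0.05.

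A list of 13 genes held transcription factors known to act on proteasome genes, together with Keap1 and Ngly1, which are not transcription factors. Of these 13 genes, 9 lay above 0 and 4 below for experiment 3 minus experiment 1. Called higher were 2 of them, the small MAF proteins Mafk (1.11 ± 0.11, SE; limma adjusted p = 0.0073) and Maff (1.72 ± 0.18; adjusted p = 0.0095), partners of NRF1 and NRF2 at the antioxidant response element. Nfe2l1 itself differed by -0.04 (adjusted p = 0.85) and Nfe2l2 by 0.43 (adjusted p = 0.18) in that comparison. For irradiated minus control none of the 13 was called (limma), and 11 lay below 0, with a median of -0.07. In the same comparison 8 of 8 NRF2 targets and 10 of 12 protein-damage genes lay below 0, with medians of -0.11 and -0.13 and 0 called. Their pair medians were -0.03 and -0.05 in experiment 1, 0.15 and 0.09 in experiment 2, and -0.41 and -0.35 in experiment 3, whereas those of the proteasome genes stayed between -0.05 and -0.02.

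Interferon response and peptide presentation genes were read beside the immunoproteasome. Of 18 measured genes, 0 were called for irradiated minus control (median -0.01). For experiment 3 minus experiment 1, 5 lay above 0 and 13 below. In that comparison 1 gene was called higher, the chemokine Cxcl10 (1.26 ± 0.13, SE; limma adjusted p = 0.0091), and 1 was called lower, Nlrc5, the activator of MHC class I genes (-0.94 ± 0.13; adjusted p = 0.022). Nlrc5 was at 5.94 and 6.23 in the irradiated and control cultures of experiment 3, against 7.07 and 6.98 in experiment 1. Psmb9, among the genes lower in that comparison, shares a promoter region with Tap1, a subunit of the peptide transporter, and Tap1 differed by -0.15 (adjusted p = 0.51).

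**Figure D4:**
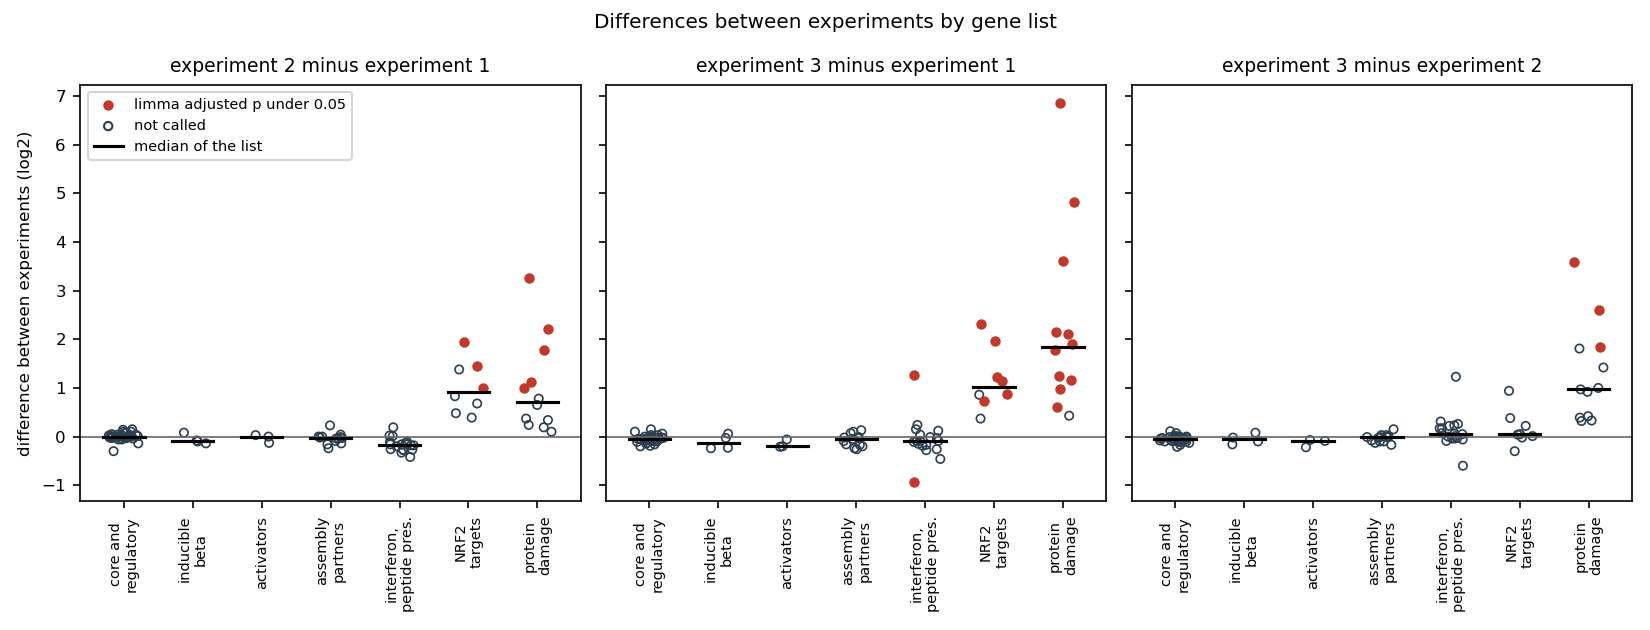
Differences between experiments on the log2 scale, 1 point per gene, for proteasome genes (core and regulatory particle, inducible beta subunits, activators) and for related gene lists, with filled red points for limma adjusted p under 0.05 and bars for list medians. Proteasome genes lie between -0.30 and 0.15 in the 3 panels, while protein-damage response genes reach 6.85 for experiment 3 minus experiment 1.

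Other measures moved with the arms and the experiments, and their part in the small proteasome differences was not tested. Of 8 fat-cell markers, 8 had an irradiated minus control difference below 0 (median -0.14, 0 called by limma), and their mean was 11.21 to 11.24 in irradiated and 11.37 to 11.47 in control cultures. Of 14 macrophage and leukocyte markers, 12 lay above 0 (median 0.07, 0 called). The signal ratio of 3′ to 5′ probe sets of Gapdh, a sign of RNA integrity, was 0.23 and 0.19 on the log2 scale in the irradiated and control arrays of experiment 1 and between -0.05 and -0.01 on the other 4 arrays. The same ratio of Actb was 0.76 and 0.75 on the irradiated and control arrays of experiment 1, 0.61 and 0.62 on those of experiment 2, and 0.62 and 0.72 on those of experiment 3. Spiked-in control RNA averaged 11.63 on control 3, against 11.06 to 11.25 on the other 5 arrays.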

How the data were processed

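The authors deposited 1 log2 value per probe set and array, and the submitters' processing notes name RMA, affy and limma without versions or roles. No log base is stated, and base 2, which RMA gives, was assumed. RMA normalizes quantiles between arrays, so a shift shared by all transcripts cannot be seen. Scanner files were not used here.

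Of 45101 probe sets, 64 Affymetrix controls were left out. The other 45037 entered limma 3.58.1 (lmFit and eBayes, R 4.3.3) with experiment and irradiation as factors, two-sided, Benjamini-Hochberg adjusted, with a threshold of 0.05 and no level filter. The fit leaves 2 residual degrees of freedom plus 4.15 from the prior, and the 6 arrays limit the precision. Intervals are 95% intervals of that fit.

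Symbols come from the platform annotation: 34945 tested probe sets have 1 symbol, 932 have several and 9160 are unnamed here. Of 137 genes in the related lists and markers, 121 were measured. Members and lists were chosen with earlier results of these data known. Genes described singly are the catalytic pairs, the activators, the 5 members of smallest p in each direction of each comparison, and the 2 genes of smallest p in each related list. Other genes named in passing were chosen after their values were seen.

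The pairs come from the series design. Deviations of paired arrays from their group means correlated with r = 0.63, 0.14 and 0.50 in experiments 1, 2 and 3, so the block was kept. Promoters are RefSeq windows of GRCm38.p6, and 1 further motif searched is not reported here.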

Additional observations from a re-analysis of the deposited data

How the results depend on the processing

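For irradiated minus control, 0 proteasome genes and 0 probe sets were called under each of the alternatives run, including the fits with no or a random replicate block. In those fits 34 of the 44 genes were lower and their median was -0.04. Complete pairs give the same differences with any block, so these values could not change, and only the SE could. The median over the members was -0.06 with median centring, where that of all probe sets was -0.02. With 1 experiment left out it ranged from -0.05 to -0.03, and the number of members lower ranged from 32 to 34. The adjusted p of Psmb3 was 0.89 to 1.00 over its alternatives.

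For the comparisons between experiments the counts over all probe sets depend on the settings. The reported counts of 234, 1374 and 16 probe sets (experiment 2 minus 1, 3 minus 1 and 3 minus 2) were 365, 2596 and 55 with a filter at the median level, 670, 3534 and 275 with a level-dependent prior, and 151, 750 and 33 with the mean of the probe sets of each gene, where fewer features are tested. Without the irradiation term 52 were called for experiment 3 minus experiment 2. Leaving out any array or experiment gave 0 to 0 calls in each of the 3 comparisons, where 1 residual degree of freedom is left. Of the members, 1 was called lower for experiment 3 minus experiment 1 with the level-dependent prior (Psma6) and 0 in the other alternatives. With arrays left out, the median over members ranged from -0.01 to 0.02 for experiment 2 minus experiment 1, from -0.06 to -0.04 for 3 minus 1 and from -0.07 to -0.05 for 3 minus 2. With median centring it was -0.04 for 3 minus 2, where that of all probe sets was 0.02. None of the named proteasome genes was called in the main fit, so their 1478 alternative values had no called direction to reverse. The median SE of a member's irradiated minus control difference was 0.0758, larger than the median difference, so most differences of this size are under what 6 arrays can show.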
